A study of Caenorhabditis elegans with 20 samples.

Results

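H3K27me3 was compared between the nematode strain labelled H3-like and the wild type, to ask where along the genome the mark moves when the chaperone recognition motif of histone H3.3 is changed and lysine 27 is left intact. The comparison used 4 of the 20 samples of the series, an immunoprecipitated (IP) library and its input from each strain, and covered all 100269 bins of 1 kb listed in both tracks. The wild type was N2. H3-like was strain FAS100, which carries his-72(uge67[A87S A88V I89A G90M]) on chromosome III and no K27M. The study made the edit at the endogenous gene and describes it as giving HIS-72 the motif of canonical H3. The label lists the valine before the alanine, whereas the motif named in the study's methods has the alanine first. HIS-72 is one of several H3.3 proteins of the worm, so unedited H3.3 from other genes remained in the strain. The edit itself was not read from these tracks. Both strains were kept at 20 °C and taken as young adults, and native ChIP-seq was made from nuclei enriched for those of germ cells, with an antibody that recognises the di- and trimethylated forms of H3K27. Each group held 1 IP library and 1 track, into which the study merged any replicates, so no difference below has a replicate error and none was tested.

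H3K27me3 is written by Polycomb repressive complex 2 (PRC2), whose catalytic subunit in C. elegans is MES-2, and it marks chromatin in which genes are kept silent. In the worm germ line the mark covers most of the X chromosome, which is largely silent there, and alternates on the autosomes with domains of H3K36me3, a mark of transcribed genes. H3.3 is the H3 variant that is deposited outside of DNA replication, by chaperones such as HIRA that read a short motif in the histone fold, and it is enriched at active genes. Canonical H3 carries another motif and is deposited behind the replication fork by the CAF-1 complex. An H3.3 with the H3 motif addresses the question whether the route of deposition matters for the mark.

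The values described were log2 of scaled IP reads over scaled input reads in 1 kb bins, as deposited, and change means H3-like minus wild type on that scale. Whole reads could be solved from the tracks. The median 1 kb bin held 1458 IP reads and 1372 input reads in the wild type, and 377 and 525 in H3-like. The H3-like IP was thus the shallower library. A strain without the motif change, labelled duplication, served as a yardstick for how far tracks of this mark lie apart. It was CGC42, with the genotype mnDp10[umnls31](X;I) and unc-3(e151), which carries a piece of X attached to chromosome I and had 85 IP reads and 45 input reads in the median 100 bp bin. Duplication has no 1 kb log2 track among those used here. The 3 strains were thus set side by side as log2 of the reads summed over the 100 bp bins of each 1 kb bin. This summed-read log2 had a Pearson r of 0.996 over bins with the deposited log2 in both strains. Its zero point differed, being 0.11 higher than the deposited one in N2 and -0.016 off in H3-like, so a change reads lower on it.

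H3K27me3 followed the same landscape in both strains. Pearson's r between the deposited tracks was 0.97 over the 1 kb bins, with 0.81 for Spearman's rho, and both rest on the shared base composition and mappability of the bins as well as on the mark. The autosomes had a peak of marked bins and a peak of depleted bins in each strain. The marked peak stood at the same place, between 0.3 and 0.4, and held 17.6% of the autosomal bins in N2 and 13.8% in H3-like. The depleted peak stood between -2.9 and -2.8 in N2 and between -2.1 and -2 in H3-like. Of the autosomal bins, 18.95% were below -2.5 in N2 and 2.81% in H3-like. The clearest difference between the tracks was therefore at the bottom of the scale, in the bins that carried least of the mark. X had almost no depleted bins, with 0.339% of its bins at or below -2 in the wild type against 24.2% on the autosomes.

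**Figure D1:**
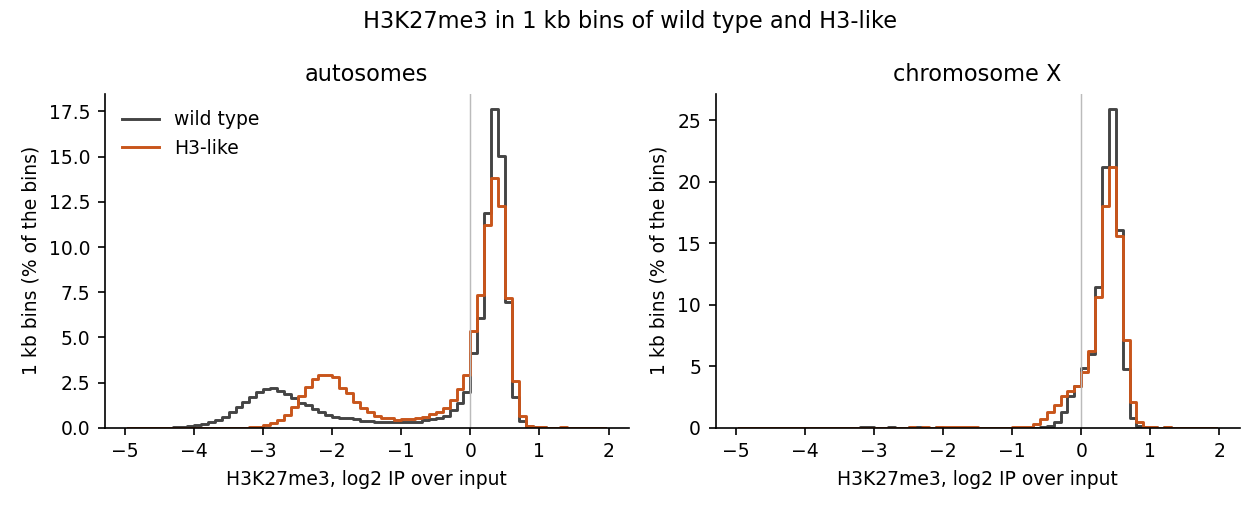
Share of 1 kb bins (%) by log2 H3K27me3 IP over input, in steps of 0.1, for the autosomes and for chromosome X of both strains. The depleted peak of the autosomes lies between -2.9 and -2.8 in N2 and between -2.1 and -2 in H3-like, and the marked peak between 0.3 and 0.4 in both.

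Bins were grouped by their wild-type level to describe this. In the 20040 bins at or below -2, the median was -2.86 in N2 and -2.11 in H3-like. The median change was 0.74, a 1.67-fold higher ratio of IP to input, and the change was above 0 in 97.7% of these bins. The 95% interval of the median over bins was 0.74 to 0.75, and the interquartile range was 0.49 to 1.02. Such an interval covers the spread over bins only. Bins of 1 library share their depth and neighbouring bins can share reads, so it is not an error between worms. In the 3546 bins between -2 and -1 the median change was 0.23, from -1.61 to -1.35. Bins that were near or above 0 in the wild type differed little. The median change was -0.0095 between -1 and 0, 0.01 between 0 and 0.25, and -0.0087 between 0.25 and 0.5. In the 11589 bins above 0.5, the most heavily marked, it was -0.13, from 0.55 to 0.44. At these levels H3-like was thus higher at the bottom and, by a much smaller amount, lower at the top. The levels are set by the wild-type track, which is part of the change. Between 0.6 and 0.7 stood 1.70% of the autosomal bins in N2 and 2.60% in H3-like, and 4.77% and 7.15% of the bins of X. In that range H3-like thus held more bins, not fewer.

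The change in depleted bins lay in the IP and not in the input. As a share of its library, the IP reads of H3-like over wild type had a median log2 of 0.76 in bins at or below -2, and the input reads one of 0.0086. The median depleted bin held 168 IP reads and 1363 input reads in the wild type, and 74 and 517 in H3-like. The counting error of a single change there was 0.22 on the log2 scale, and 80.0% of the depleted bins were past the 95% bound of their own counting error, against 18.6% of the bins between 0.25 and 0.5. Summed over the 100 bp bins, the depleted bins took 2.92% of all IP reads in N2 and 4.37% in H3-like, while their share of input reads was 20.5% and 20.1%. The IP of H3-like was the shallower library in these bins too, and the deposited tracks hold the maximum number of reads in a bin. The part of depth in the change was not tested. On summed reads the change in depleted bins was 0.51, a 1.43-fold higher ratio. When the log2 tracks were brought to the same distribution of values by quantile normalization, which removes any difference of scale between tracks by construction, it was 0.026.

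A difference of the same direction was present in the strain without the motif change. In bins at or below -2 the summed-read log2 was -2.74 in N2, -2.22 in H3-like and -1.99 in duplication. Duplication minus wild type was 0.75, a 1.68-fold higher ratio, and was thus larger than H3-like minus wild type. H3-like minus duplication had a median of -0.22 there. The depleted bins took 5.48% of the IP reads of duplication and 22.9% of its input reads. The distance between the median of bins above 0 and that of bins at or below -2 was 3.22 in N2, 2.57 in H3-like and 2.46 in duplication, so the wild type stood apart from both other strains. These comparisons share the wild-type track. Over all bins, the SD of the difference was 0.39 for H3-like minus wild type, 0.56 for duplication minus wild type and 0.41 for H3-like minus duplication. By this spread over bins, H3-like was no farther from the wild type than duplication was. The SDs include counting error, and duplication had the fewest input reads of these strains, 45 in the median 100 bp bin. The part of counting error in the SDs was not tested. In 10 kb bins of summed reads the SDs were 0.24, 0.35 and 0.21 in the same order.

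**Figure D2:**
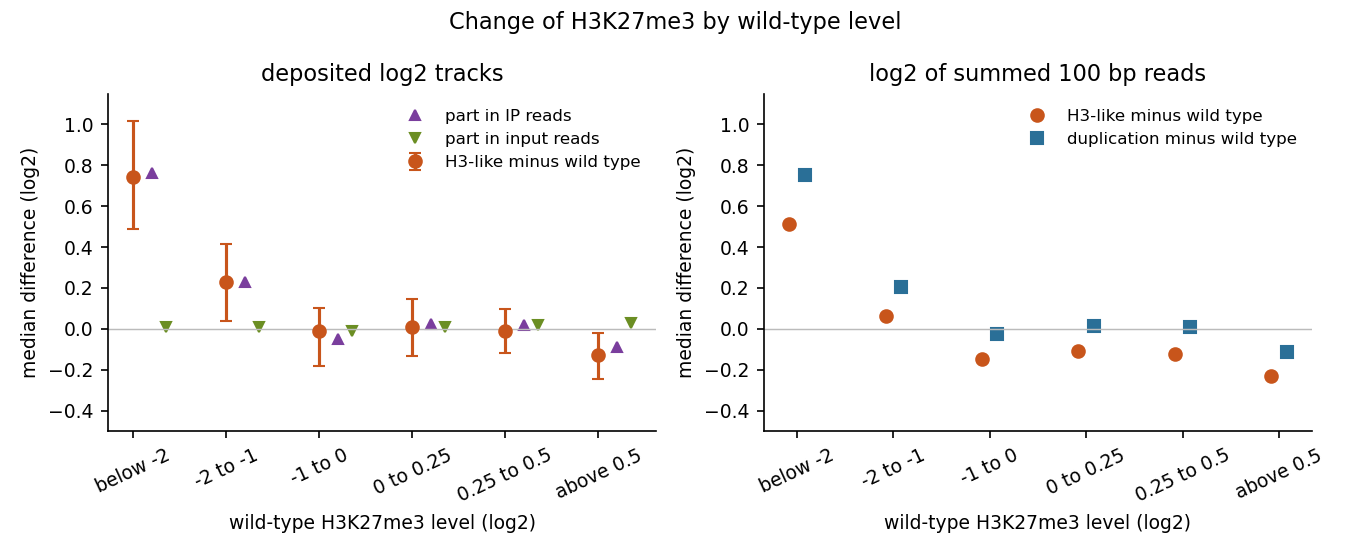
Median difference in H3K27me3 (log2) by wild-type level of the 1 kb bin, on the left H3-like minus wild type in the deposited tracks with bars for the interquartile range over bins and its parts in IP and input reads (triangles), and on the right H3-like minus wild type and duplication minus wild type from summed reads. In bins at or below -2 the difference is 0.74 on the left and, on the right, 0.51 for H3-like and 0.75 for duplication.

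The size of the change at the top of the scale depended on which track set the levels. With levels set by duplication, which shares no reads with either strain, and with the same number of bins in each, the lowest level had a change of 0.69 and the highest of 0.08. With levels set by H3-like itself these values were 0.70 and 0.15. The higher level of depleted bins in H3-like thus stood under each H3K27me3 track that set the levels, whereas the lower level of the most marked bins turned into a higher one on the deposited scale. On summed reads the highest level stayed lower in H3-like with levels set by duplication, at -0.049, and was at 0.03 with levels set by H3-like.

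Of all bins, 5.30% were more than 2-fold higher in H3-like and 0.156% more than 2-fold lower. The 5314 higher bins were almost all depleted ones. Of them, 98.8% were at or below -2 in the wild type, and their median was -3.26 in N2 and -2.01 in H3-like. In depleted bins 5249 stood, 26.2% of all bins at that level, and this share ran from 25.6% on V to 27.3% on II among the autosomes. Only 21 of the higher bins lay on X. The 156 lower bins were thinly covered. Their median input was 27.5 reads in N2 and 11 in H3-like, and 129 of the 156 had fewer than 100 input reads in at least 1 strain. In 106 of them all 4 libraries had reads that could be solved. They were spread over the chromosomes, from 21 on X and 22 on IV to 35 on V. With at least 100 input reads required in both strains, 5221 bins were higher and 27 lower. Under quantile normalization the counts were 506 and 532, so the excess of higher bins was not present there. In 10 kb bins of summed reads, without that normalization, 4 bins were past 2-fold higher and 1 lower.

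By chromosome, I had a median change of 0.09, II of 0.03, III of 0.10, IV of 0.06, V of 0.014 and X of -0.019. I and III, the chromosomes with most depleted bins, had the largest change. The share of bins at or below -2 in the wild type was 36.2% on I and 37.2% on III, 22.1% on II, 20.2% on IV and 11.9% on V. Within depleted bins the autosomes were alike, with median changes from 0.73 on III to 0.76 on II. The 60 depleted bins of X lay in its left arm and had a median change of 0.63. X minus autosomes was -0.07 in the median change over all bins. At the same wild-type level the order went both ways. In bins between -1 and 0 X stood at -0.12 and the autosomes at 0. Between 0 and 0.25 X stood at -0.037 against 0.021. Between 0.25 and 0.5 X stood higher, at 0.022 against -0.018, and above 0.5 at -0.09 against -0.15. The sign of a single chromosome's small change depended on the zero point of the tracks. On summed reads all 6 medians were below 0, from -0.03 on III to -0.14 on X, and X minus autosomes was again -0.07. Under quantile normalization it was -0.0051. Duplication minus wild type had the same order of X and autosomes, with -0.0031 on X and 0.14 on the autosomes.

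Input-subtracted signal, in scaled reads per 100 bp bin, was also lower in H3-like on each chromosome. Its mean over X was 41.2 in N2, 24.96 in H3-like and 34.3 in duplication. Duplication carries an added piece of X, and its mean was 24.8 in the left arm of X, 35.5 in the centre and 42.6 in the right arm. The part of copy number in these values was not tested. The mean over chromosome V, the autosome with the fewest depleted bins, was 22.1, 11.2 and 14.3 in the same order. Chromosomes I and III had means below 0 in all 3 strains, with -18.9, -25.6 and -28.2 on I and -20.8, -24.5 and -27.9 on III. The mean over the whole genome was 7.91 in N2, -1.21 in H3-like and 0.56 in duplication. The tracks thus differed in their genome-wide mean too, and the values by chromosome were not corrected for that offset. On this scale the depleted bins were still higher in H3-like, with a mean of -79.5 against -95.6, and the bins above 0.5 were lower, with 35.2 against 65.3. X remained the chromosome with the highest mean in each strain.

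Each chromosome was cut into 3 equal lengths, a left arm, a centre and a right arm. In C. elegans the autosomal centres are rich in essential and conserved genes, and the arms in repeats and in younger genes. The median change was higher in the centre than in either arm on all 6 chromosomes. Over the autosomes it was 0.11 in the centres and 0.013 in the arms, a difference of 0.10. It was 0.18 in the centre of I against 0.07 and 0.0059 in its arms, and 0.084 in the centre of V against 0 and -0.034. Centres and arms had similar shares of depleted bins, 24.8% and 23.9%. In 5 steps of distance from the middle of the autosomes to their ends, the share of depleted bins stayed between 23.2% and 25.1%, while the median change went from 0.11 and 0.10 near the middle to 0.033, -0.0038 and -0.0017 toward the ends.

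The difference between centres and arms was clearest in marked bins. Among autosomal bins above 0 in the wild type, the median of the 17267 bins of the centres was 0.34 in N2 and 0.38 in H3-like, and that of the 34892 bins of the arms was 0.37 and 0.31. The median changes were 0.035 and -0.064. The centre was higher than both arms in the marked bins of all 6 chromosomes. On I the change of marked bins was -0.14 in the left arm, 0.026 in the centre and -0.11 in the right arm. The right arm of IV was the only arm whose marked bins had a median change above 0, 0.014, and on X the values were -0.038, 0.011 and -0.014. In depleted autosomal bins the centre and arms were closer, with 0.77 and 0.73.

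The same order was found in duplication, and it was larger there. In marked autosomal bins on summed reads, H3-like minus wild type was -0.084 in the centres and -0.17 in the arms, and duplication minus wild type was 0.17 and -0.11. H3-like therefore differed from duplication by -0.25 in the centres and -0.066 in the arms. The order of centres over arms relative to the wild type was thus present with and without the changed motif.

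**Figure D3:**
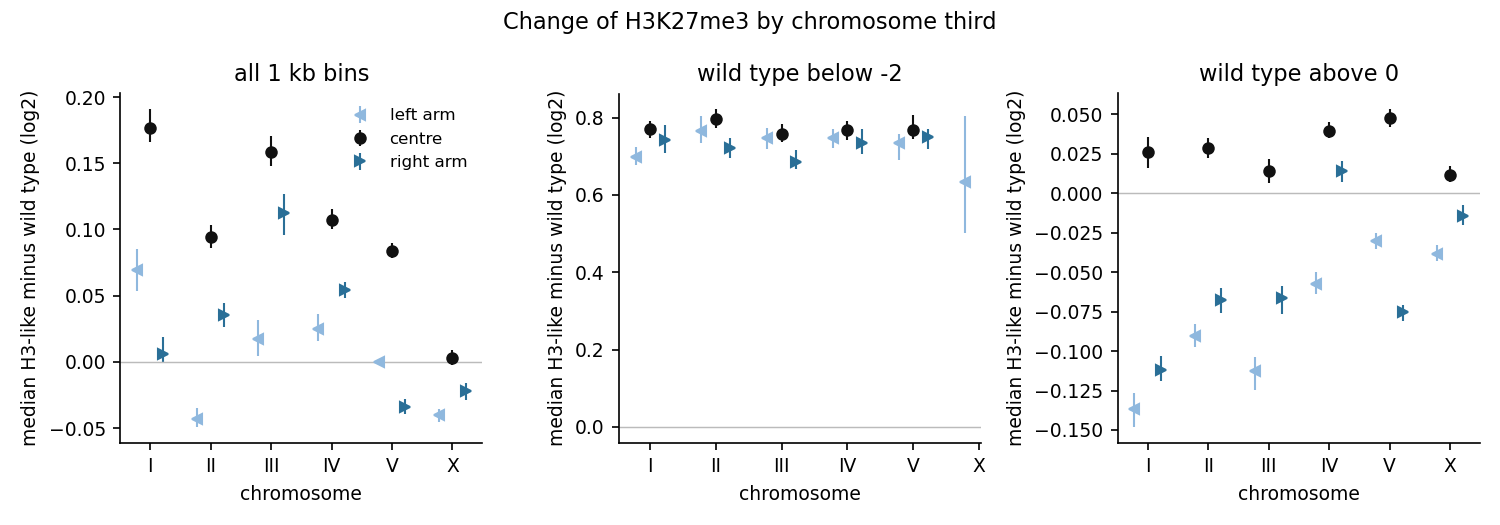
Median H3-like minus wild type (log2) in the left arm, centre and right arm of each chromosome, for all 1 kb bins, for bins at or below -2 and for bins above 0 in the wild type, with bars for the 95% interval of the median over bins. Centres lie above both arms on each chromosome in the first and last panels, and depleted autosomal bins lie between 0.69 and 0.80.

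Occupancy of H3.3, read from a strain with OLLAS-tagged HIS-72 and the normal motif (FAS107), ordered the marked bins as well. Among autosomal bins above 0 in the wild type, the median change was 0.014 in the quintile with least H3.3 and -0.12 in the quintile with most. The steps between were 0.0076, -0.014 and -0.047. The wild-type level of these quintiles went from 0.42 to 0.29 along the same order, and the H3-like level from 0.43 to 0.18. Centres and arms differed within every quintile. In the quintile with most H3.3 the change was -0.024 in 2257 bins of the centres and -0.15 in 8175 bins of the arms. In the quintile with least H3.3 it was 0.059 and -0.005. Marked bins that were rich in H3.3 and lay in the arms therefore had the lowest change of these 10 groups.

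This order too was present in duplication. On summed reads, arm bins went from -0.12 to -0.25 across the quintiles in H3-like minus wild type, and from 0.11 to -0.32 in duplication minus wild type. Centre bins went from -0.059 to -0.14 and from 0.26 to 0.018. In H3-like minus duplication, the marked autosomal bins stood at -0.25 in the quintile with least H3.3 and at 0.017 in the quintile with most.

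**Figure D4:**
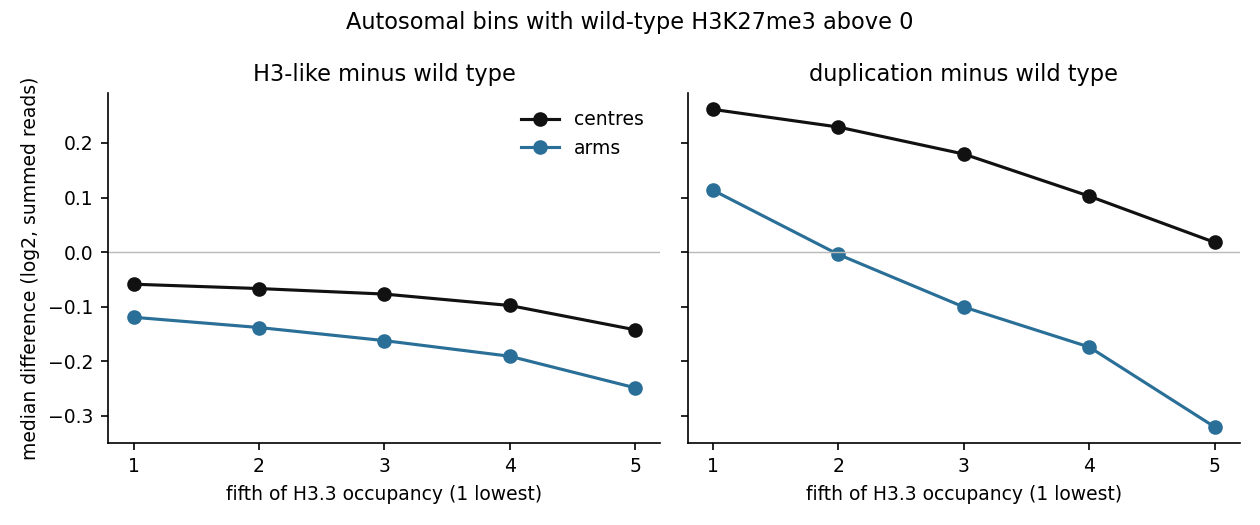
Median difference in H3K27me3 (log2 of summed reads) in autosomal bins above 0 in the wild type, by quintile of H3.3 occupancy (1 lowest), for centres and arms. H3-like minus wild type runs from -0.12 to -0.25 in the arms and duplication minus wild type from 0.11 to -0.32.

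In depleted bins the change was also ordered by H3.3. It was 0.81 in the quintile of depleted bins with least H3.3, then 0.76, 0.74 and 0.72, and 0.68 in that with most, and the wild-type level of these quintiles was -2.93 and -2.75. H3K36me3 in the wild type, measured in 10 kb bins, marked the chromatin in which these bins lay. From the quintile of bins with least H3K36me3 to that with most, the share of bins at or below -2 in H3K27me3 was 1.995%, 4.42%, 11.6%, 31.2% and 50.8%, and the median change was 0.00014, 0.012, 0, 0.066 and 0.26. Within depleted bins the change went from 0.69 to 0.79 over the quintiles of H3K36me3, and their wild-type level from -2.69 to -2.97. Over all bins the median change was thus highest in the quintile with most H3K36me3, and within depleted bins it was lower with more H3.3 and higher with more H3K36me3. Both orders within depleted bins were present in duplication too. On summed reads, from least to most H3.3, duplication minus wild type went from 0.88 to 0.56 and H3-like minus wild type from 0.58 to 0.46. From least to most H3K36me3 they went from 0.68 to 0.81 and from 0.47 to 0.53.

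Domains of H3K27me3 were defined as runs of at least 5 bins above 0. There were 2304 in the wild type, which covered 65703 kb with a median length of 18 kb, and 2554 in H3-like, which covered 60536 kb with a median of 15 kb. Of the bins in wild-type domains, 94.4% were above 0 in H3-like, and of those in H3-like domains 98.96% were above 0 in the wild type. Almost all bins of H3-like domains thus passed the cut at 0 in N2 as well, but whether they lay in wild-type domains was not counted. This cut was passed by 68.1% of all bins in N2 and by 64.4% in H3-like, whose median was also lower, at 0.23 against 0.28. No other zero point was run for the domains, so its part in their number, cover and length was not tested. Genome-wide, 4815 bins were above 0 in the wild type alone and 1028 in H3-like alone, and most of these were close to 0. The first had a median of 0.15 in N2 and -0.10 in H3-like, and the second of -0.069 and 0.11.

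The borders coincided in part. In the first 1 kb inside a wild-type border the mean was 0.25 in N2 and 0.15 in H3-like, and 75.4% of these bins were above 0 in H3-like. In the first 1 kb outside it was -0.42 and -0.35, and 19.0% of these bins were above 0 in H3-like. From 5 kb inside to 10 kb inside the strains differed by at most -0.043. At 5 kb outside H3-like was higher by 0.25. When the borders were taken from H3-like, the first bin inside differed by -0.03 and the bin 5 kb outside by 0.18. The first bin outside was then at -0.19 in N2 and -0.32 in H3-like, a change of -0.13 against 0.073 with wild-type borders, and 47.99% of these bins were above 0 in the wild type. The step at a border thus depended on which strain set it. On summed reads the mean in the first bin inside was 0.36 in N2, 0.15 in H3-like and 0.31 in duplication, and 5 kb outside it was -0.91, -0.82 and -0.64. The lower value just inside the border was seen in H3-like more than in duplication, on a scale where the median of marked bins was also lower in H3-like, 0.35 against 0.48 in the wild type.

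**Figure D5:**
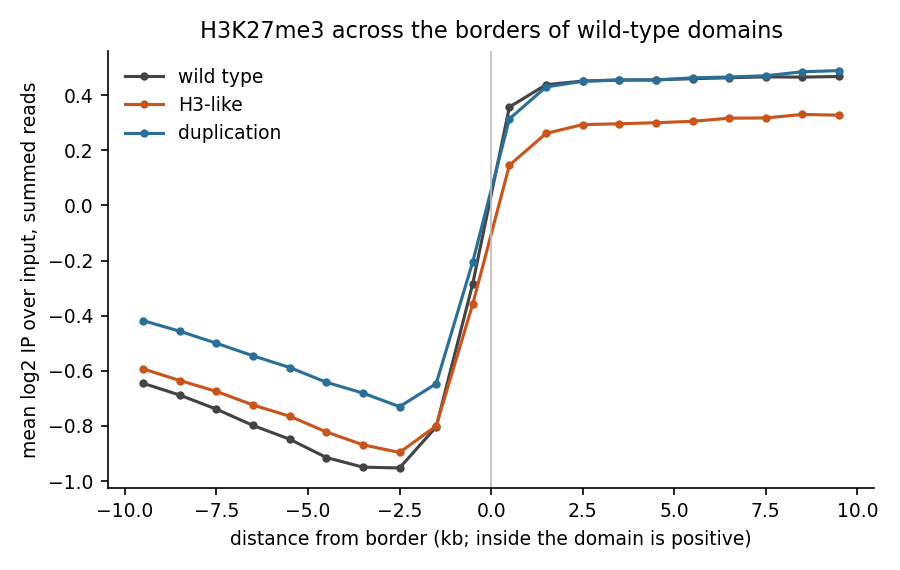
Mean log2 H3K27me3 from summed reads in the wild type, H3-like and duplication by distance (kb) from the borders of wild-type domains, with the inside of the domain on the right. The means of all 3 strains step up across these borders, to 0.36, 0.15 and 0.31 just inside the border.

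The 10 kb bins with the largest changes were named by a fixed rule, as the 5 highest and 5 lowest means of 1 kb changes among bins where at least 8 of 10 shared a sign. Coordinates are those of the tracks, on build WBcel215, and no genes are named there because no annotation of that build was used. The 5 highest lay on III from 1070001 to 1080000, on V from 180001 to 190000, on IV from 2350001 to 2360000, on II from 2910001 to 2920000 and on III from 2150001 to 2160000. All 5 were deeply depleted in the wild type, between -3.83 and -3.38, and stood between -2.49 and -2.07 in H3-like. Their mean changes were 1.34, 1.33, 1.24, 1.22 and 1.21, with SDs over their bins from 0.43 to 0.91. The bins were picked by a change that holds the wild-type track, which favours low wild-type values. Other tracks may stand above N2 there by that choice alone. Duplication was above the wild type in all 5. At the first, for example, the summed-read log2 was -3.49 in N2, -2.68 in H3-like and -2.72 in duplication. The largest upward changes thus stood where the wild type had few IP reads, with 104 to 120.5 IP reads in the median 1 kb bin.

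The 5 lowest were more diverse. Their choice, by the same change, favours high wild-type values. On II from 690001 to 700000 the mean was 0.15 in N2 and -0.61 in H3-like, a change of -0.76 with an SD of 0.70 over its bins. It held one of the longest runs of lower bins, 5 kb from 694001 to 699000, in which the median was 0.30 in N2 and -1.16 in H3-like, with 618 IP reads in N2 and 50 in H3-like. H3.3 occupancy was high in that run, with a median log2 of 1.66. Duplication was low there as well, at -0.81 on summed reads against 0.28 in N2 and -1.39 in H3-like. On II from 3460001 to 3470000 the mean was 0.60 in N2 and 0.023 in H3-like, and duplication stood at 0.14 on summed reads against 0.60 in the wild type. On V from 18840001 to 18850000 it was -0.25 and -0.85, and on summed reads -0.12, -0.80 and, in duplication, -0.46.

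In the remaining pair, H3-like differed from both other strains. On III from 7440001 to 7450000 the mean was 0.21 in N2 and -0.45 in H3-like, and on summed reads 0.24, -0.21 and, in duplication, 0.56. The SD of the change over its bins was 0.60. Its median 1 kb bin held 306.5 input reads in N2 and 121.5 in H3-like, against 1372 and 525 genome-wide. On V from 6080001 to 6090000 the mean was 0.58 and 0.04, and on summed reads 0.61, 0.18 and, in duplication, 1.11, with 30 input reads in the median bin of H3-like. No replicate was used against which a difference at such a depth could be set.

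Runs of consecutive bins past 0.5 in the same direction numbered 5055 upward and 1045 downward. The share of all bins past 0.5 was not counted. Runs were not recounted under quantile normalization, where 506 bins were past 2-fold higher and 532 lower. Of the upward runs 1075 were at least 5 kb long, and of the downward runs 2. The longest upward runs were 27 kb on III from 9804001 to 9831000, 23 kb on I from 14097001 to 14120000 and 21 kb on III from 2515001 to 2536000. Their medians went from -3.11 to -2.20, from -3.33 to -2.54 and from -3.09 to -2.09. Duplication stood at -1.94, -2.61 and -1.96 in them on summed reads. These runs too were picked by a change that holds the wild-type track. The other downward run of 5 kb, on X from 7352001 to 7357000, was thinly covered. Its median was 0.86 in N2 and 0 in H3-like, and in the 3 of its bins that could be solved the median input was 124 and 23 reads. Another 5 downward runs were 4 kb long.

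The same motif change was also made together with K27M, which allowed a second look at it. H3-like K27M minus H3.3K27M, from strains FAS104 and FAS58 with 1 IP library each, shares no track with H3-like minus wild type. With K27M the difference was 1.09 in bins at or below -2 in the wild type, 1.04 between -2 and -1, 0.64 between -1 and 0, 0.31 between 0 and 0.25, 0.06 between 0.25 and 0.5 and 0.044 above 0.5. The differences without and with K27M had a Pearson r of 0.37 over the 100269 bins, which share base composition and mappability. Within a wild-type level it was between -0.20 and 0.068. With K27M chromosome I had a difference of 0.87, II of 0.35, III of 0.89, IV of 0.41, V of -0.59 and X of 0.23, against -0.019 to 0.10 without K27M. The difference between these values was not tested.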

How the data were processed

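Native ChIP-seq libraries of wild type and H3-like worms (1 IP and 1 input each) were compared. Per the study's methods, paired reads were mapped to WBcel215 with Novoalign, and the authors binned the reads as the maximum per bin, scaled libraries to the same number of reads, merged replicates that passed a quality check and smoothed the tracks to an extent that is not stated. The authors deposited log2 ratios of IP over input in bins of 1 kb or 10 kb. The deposited input-subtracted tracks hold a score in scaled reads in bins of 100 bp or 1 kb. Of 27 deposited tracks 10 were used, and 4 that match no described sample were not used.

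Here tracks were matched by chromosome and start. Whole reads were solved from the worth of 1 read, in at least 99.97% of 100 bp bins and 99.89% of 1 kb bins (tolerances 2e-08 and 1e-07 reads, with 1 scaled read added to each in log2 ratios). They give the depth, and the solver was tested on simulated data. Wild-type levels had limits at -2, -1, 0, 0.25 and 0.5. Medians carry order-statistic 95% intervals over bins. Counting errors treat reads as independent, which PCR copies are not. With 1 library a group no test was made, and a bin counted as past 2-fold at a log2 difference over 1. The named-bin rule took 10 kb bins with all 10 bins of 1 kb listed and wild-type input reads. Alternatives were other zero points, scales, bin sizes, depth filters, arm limits and tracks setting the levels. The comparison, levels and lists were chosen with earlier results of these data known. Python 3.11.15, NumPy 2.4.6, pandas 2.3.3 and Matplotlib 3.10.9 were used.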

Additional observations from a re-analysis of the deposited data

Results flagged for a closer look

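The median H3K27me3 difference between strains with and without the motif change had opposite signs without and with K27M in 5 groups of bins, each a comparison of 1 library with 1, and the difference was not tested. On chromosome V the median change was 0.014 without K27M and -0.59 with it. On X it was -0.019 and 0.23, and with each track centred on its own median both values on X were above 0 (0.028 and 0.10), so there the opposite sign rested on the zero point. In bins between -1 and 0 in the wild type it was -0.0095 and 0.64, in bins between 0.25 and 0.5 it was -0.0087 and 0.06, and in bins above 0.5 it was -0.13 and 0.044. Centring gave one sign to both values in the first of these levels (0.038 and 0.52) and in the last (-0.081 and -0.079), and left opposite signs in the middle one (0.039 and -0.063) and on V (0.061 and -0.71).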

How the results depend on the processing

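No paired analysis was possible because each group held 1 library, so that leaving a library out would leave no comparison. Of 136 recomputed values, 37 main ones moved, 4 changed sign and 18 stayed as reported, and of the others 32 moved, 27 changed sign and 18 stayed. A log2 value stayed only within a narrow bound, for most values that of the interval over bins. Values in scaled reads could not count as stayed. Counts in 10 kb bins or at another fold were bound to differ. X minus autosomes stayed below 0 and centres minus arms above 0 under every alternative run, and the change at or below -2 stayed above 0. No alternative matched X and autosomes by wild-type level, where their order went both ways. The shallow H3-like IP limits what single bins show.

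With each track centred on its own median, the change was 0.79 at or below -2, 0.038 between -1 and 0, 0.039 between 0.25 and 0.5, -0.081 above 0.5 and 0.028 on X, and with K27M it was 0.10 on X, 0.40 on the autosomes and 0.96 at or below -2. On input-subtracted tracks, in scaled reads per bin and with no fold to count, chromosome I had a median change of -2.24, II of -8.36, III of -1.32, IV of -4.52 and V of -9.89, X minus autosomes was -9.35, centres minus arms 6.35, and the levels at or below -2, 0 to 0.25 and above 0.5 were at 15.2, -10.2 and -25.7. In 10 kb bins of summed reads I had a change of -0.081, II of -0.11, III of -0.066, IV of -0.078 and V of -0.11, X minus autosomes was -0.046, centres minus arms 0.087, and these 3 levels were at 0.47, -0.17 and -0.14. There 4 bins were past 2-fold higher and 1 lower, and the SDs over bins were 0.24 for H3-like minus wild type, 0.35 for duplication minus wild type and 0.21 for H3-like minus duplication.

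With at least 100 input reads X minus autosomes was -0.074 and 27 bins were lower. Under quantile normalization I had a change of -0.012, II of -0.0027, III of -0.0098 and X of 7.9e-05, X minus autosomes was -0.0051 and centres minus arms 0.085. The levels were then at 0.026 (at or below -2), -0.069 (-2 to -1), 0.088 (-1 to 0) and 0.0053 (0.25 to 0.5), with 506 bins higher and 532 lower. The levels at or below -2, 0 to 0.25 and above 0.5 were at 0.73, -0.077 and 0.046 when set by the mean of both strains, 0.70, -0.14 and 0.15 by H3-like, and 0.69, -0.10 and 0.077 by duplication. Set by H3.3 occupancy, highest first, the lowest was at 0.065, and -1 to 0, 0.25 to 0.5 and above 0.5 were at 0.082, 0.023 and 0.017. At 1.5-fold 13718 bins were higher and 685 lower. With the deposited scaling the IP part at or below -2 was 0.77. From borders of the H3-like track the change was -0.030 just inside and 0.18 at 5 kb outside. From 10 kb means the difference with K27M was 0.23 on X, 0.51 on the autosomes and 1.09 at or below -2. The cause of these moves was not tested, beyond what a setting does by its construction.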

Other observations

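The 6 wild-type levels held 60.2% of the variance of the change over bins and the 6 chromosomes 5.30% of it. The levels are set by a track that is part of the change. Neighbouring 1 kb bins had changes with a Pearson r of 0.62, and 10 kb apart it was 0.24. Within depleted bins it was 0.085 between neighbours, over 17903 pairs, and within bins above 0 it was 0.24.

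Input shares of the strains differed in a few places, found after the values were seen. The longest stretch with input past 0.8 on the log2 scale was 10 kb on V from 19628001 to 19638000, with 1975.5 input reads per 1 kb bin in N2 and 353 in H3-like. The log2 of the input share there was -1.05 and that of the IP share -1.51, and the change was -0.35. In all, 39 bins had a higher and 196 a lower input share in H3-like by more than 0.8.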
